A study of Mus musculus with 3 samples.

Results

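The Reg genes Reg3b, Reg3g, Reg3a, Reg1 and Reg4 were examined in single-cell RNA sequencing (scRNA-seq) of the mouse intestinal epithelium, 5 genes of the 51912 in the deposited features. They are members of a known protein family and were chosen by their cell class levels and by their differences between genotypes in these libraries, so every difference between genotypes below is a description and not a test. The data came from 2 libraries of mice that lose Arid3a in the intestinal epithelium (Arid3a cKO 1 and Arid3a cKO 2) and 1 control library (WT), named as biological replicates with no word on pooling of mice. Arid3a cKO mice carry VillinCreERT2 and Arid3a fl/fl, and WT carries VillinCreERT2 alone. Villin drives the recombinase in epithelial cells of the gut, so the deletion is limited to the epithelium, and other cells of these mice keep Arid3a. Mice of both genotypes received tamoxifen when 8 to 10 weeks of age, and tissue was taken 1 month after the first injection. Cells came from isolated crypts and were sorted as live (DAPI-) Epcam+ CD45- CD31- cells before 10x 3′ libraries were made. With 1 WT library, no spread among WT mice can be given, and genotype cannot be told apart from whatever else differs between single animals or preparations.

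Reg proteins are small secreted C-type lectins. Reg3b and Reg3g are antibacterial: Reg3g binds the peptidoglycan of Gram-positive bacteria and keeps them away from the epithelial surface, and Reg3b acts mainly on Gram-negative bacteria. Both are induced by microbes through IL-22 and STAT3 and through MyD88 signalling, and they are made by enterocytes and Paneth cells. Reg1 was first described in the regenerating pancreas, and Reg4 marks a part of the secretory lineage that includes enteroendocrine cells and, in the colon, deep crypt secretory cells.

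All of these genes but Reg4 lie in 1 cluster. In the GENCODE M21 annotation of GRCm38, Reg3b (chr6:78370657-78373466, plus strand, ENSMUSG00000071356), Reg3a (chr6:78380709-78383827, plus, ENSMUSG00000079516), Reg1 (chr6:78422711-78428667, plus, ENSMUSG00000059654) and Reg3g (chr6:78466269-78468872, minus, ENSMUSG00000030017) are protein-coding genes, together with Reg3d and Reg2 within 98.2 kb. Reg4 (ENSMUSG00000027876) is alone on chr3:98222156-98236748, plus strand. The first transcript of each gene has 6 exons. The bases just before the RefSeq transcription start of the 4 members on chromosome 6 are printed because these neighbours differed in how their levels compared between genotypes. They were read from the RefSeq promoters of GRCm38.p6, 5′ to 3′ on the strand of the gene, and capitals mark matches to 1 of 4 short motifs on either strand.

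Reg3b, chr6:78370735-78370884, plus strand: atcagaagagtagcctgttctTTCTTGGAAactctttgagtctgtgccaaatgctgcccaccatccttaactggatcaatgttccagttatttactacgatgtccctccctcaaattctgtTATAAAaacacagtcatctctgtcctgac
Reg3g, chr6:78468875-78469024, minus strand: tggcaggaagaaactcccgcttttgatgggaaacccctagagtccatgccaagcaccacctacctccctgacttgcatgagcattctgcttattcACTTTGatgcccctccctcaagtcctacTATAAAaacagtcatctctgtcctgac
Reg3a, chr6:78380559-78380708, plus strand: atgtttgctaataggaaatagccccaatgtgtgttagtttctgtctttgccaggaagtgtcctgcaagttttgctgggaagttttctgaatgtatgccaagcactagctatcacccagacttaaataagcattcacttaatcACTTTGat
Reg1, chr6:78425833-78425959, plus strand, without the 23 bases next to the start: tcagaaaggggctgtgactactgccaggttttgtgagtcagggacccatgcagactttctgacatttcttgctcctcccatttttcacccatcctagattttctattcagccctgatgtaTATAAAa

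Reg3b and Reg3g shared their last 20 bases before the start, and 70.3% of aligned bases over the 150 were identical. Reg3g and Reg3a were 75% identical over 100 aligned bases, so likeness was not particular to the first pair. The motif TTCNNNGAA, the palindrome that STAT factors bind, was found in the Reg3b window alone, 129 bases before the start, and 4.09% of 32851 promoter windows of 150 bases held it. TATAAA was found 29 bases before the start of Reg3b, 27 before that of Reg3g and 30 before that of Reg1, against 7.57% of all windows. CAAAGT, a core bound by HNF4 factors, was matched on the opposite strand 55 bases before the Reg3g start and 8 before the Reg3a start (7.04% of all windows). ATTAAA, a core found in ARID3A motifs, was in none of the 4 windows (6.93% of all windows). No match overlapped another, and a match to so few letters is a description of these bases, not a binding site. The transcripts are alike in part: Reg3b and Reg3g were 74.7% identical with a longest shared run of 35 bases, and Reg3b and Reg3a 73.7% with 24. Only a read lying wholly within such a run would match both genes equally. The placing of reads was not tested.

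The matrices held 6845, 6893 and 11816 barcodes (Arid3a cKO 1, Arid3a cKO 2 and WT, the order of all values below), of which 2134, 1550 and 1910 had at least 1000 genes and at most 15% mitochondrial unique molecular identifiers (UMIs), with medians of 29895 to 35764 UMIs per cell. Kept cells of different libraries shared 0 to 2 barcodes per pair. Arid3a, the deleted gene, gave 42, 52 and 161 UMIs over all kept cells, or 0.592, 0.894 and 2.57 counts per 1000000 UMIs (CPM), so it was lower in both cKO libraries but not at 0. Clusters were built without the Reg genes and named by fixed markers: intestinal stem cell (ISC), transit-amplifying (TA), enterocyte, goblet, Paneth, enteroendocrine and tuft. Each name means a cluster like that cell type by its markers, and 1 cluster of 50 cells stayed unnamed. CPM is the UMIs of a gene summed over the cells of a class in a library and divided by the UMIs of those cells. Because the kit tags each molecule once near its 3′ end, CPM was not divided by transcript length. Log2 ratios divide a cKO library by WT after adding 5 CPM to each, so they are negative where WT is higher. Intervals are 95% intervals and cover counting error only, not the spread between mice.

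Each member had 1 main cell class. Of all Reg3b UMIs in kept cells, 97.6%, 95.7% and 90.8% were in enterocytes, and for Reg1 the shares were 96.1%, 95.04% and 93.7%. Reg4 differed from the others: 66.6%, 79.7% and 82.5% of its UMIs were in the few enteroendocrine cells and 29.5%, 14.7% and 12.6% in Paneth cells. Together the 5 members took 1.57%, 1.54% and 1.69% of all enterocyte UMIs. Reg1 was the most abundant of them in each library, followed by Reg3b, Reg3g, Reg3a and, far below, Reg4.

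**Figure D1:**
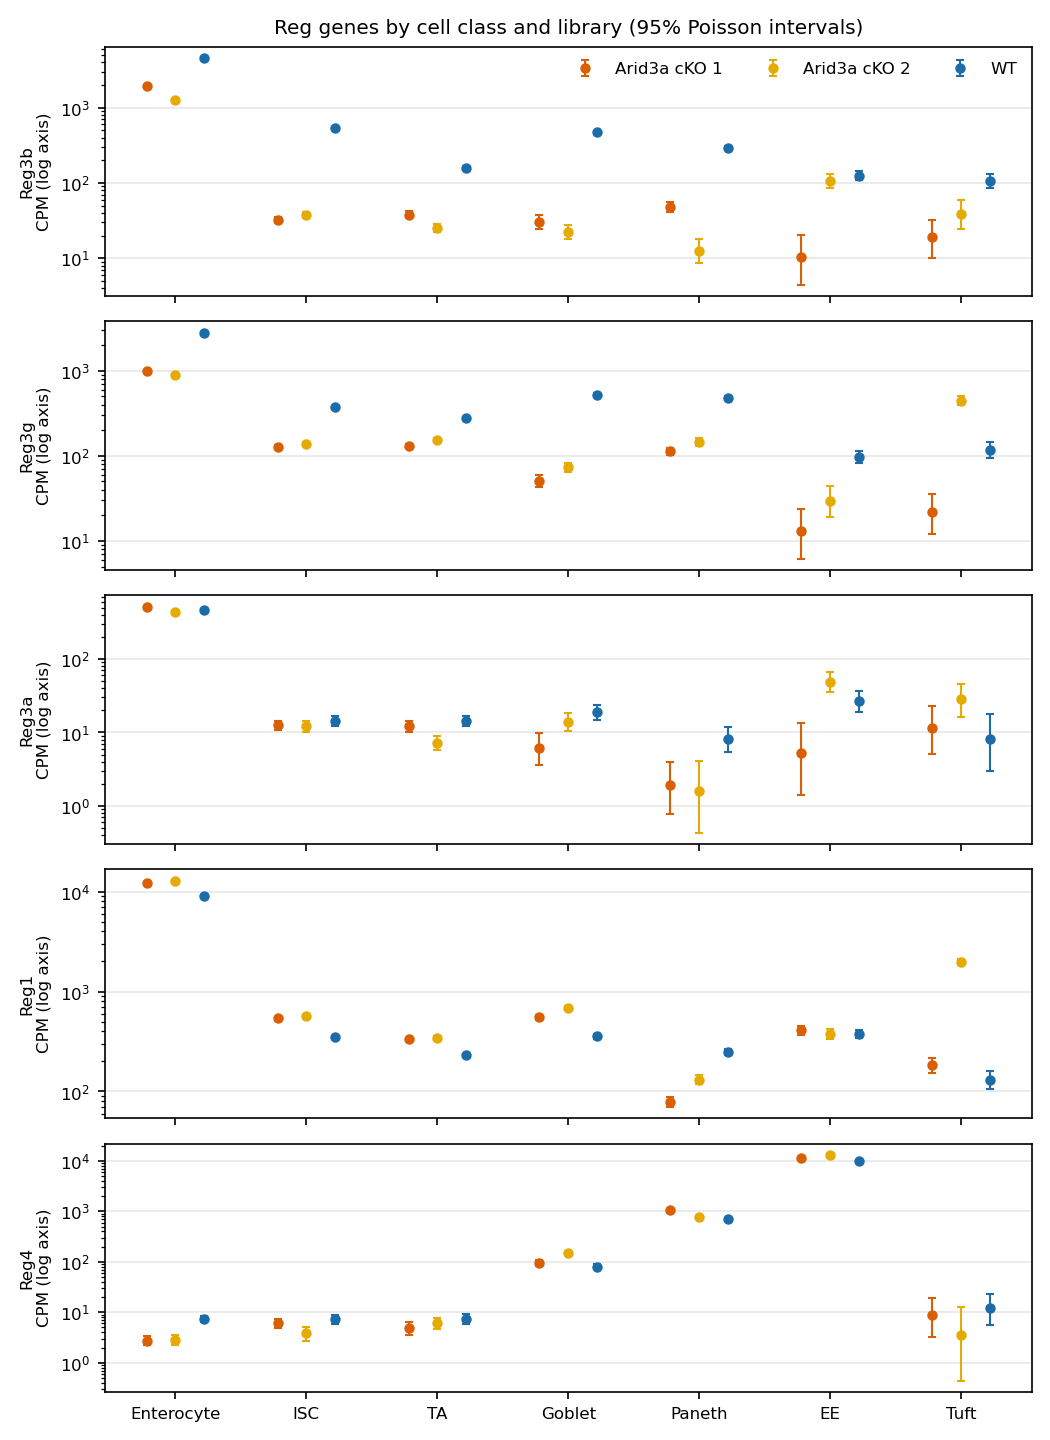
CPM of each Reg gene (log axis) in the 7 named cell classes, with 1 point per library and bars for exact Poisson 95% intervals of the summed UMIs. Reg3b, Reg3g, Reg3a and Reg1 peak in enterocytes and Reg4 in enteroendocrine cells, and the WT point lies above both Arid3a cKO points for Reg3b and Reg3g in enterocytes.

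Reg3b and Reg3g were lower in the enterocytes of both Arid3a cKO libraries, Reg3a was at a similar level and Reg1 was higher. The level of Reg3b, the lectin active mainly against Gram-negative bacteria, was 1968 CPM (1954 to 1983), 1269.5 CPM (1257 to 1283) and 4509.99 CPM (4486 to 4534). WT was 2.29- and 3.55-fold higher, log2 ratios of -1.19 and -1.82, and the nearer cKO library lay 2542 CPM below WT while the cKO libraries differed by 699 CPM. The level of Reg3g, which acts on Gram-positive bacteria, was 979.9 CPM (969.9 to 989.9), 884 CPM (873 to 894) and 2787 CPM (2768 to 2806). WT was 2.84- and 3.15-fold higher, log2 ratios of -1.50 and -1.65, and the cKO libraries were only 96.4 CPM apart. So for both lectins the cKO levels did not overlap the WT level by counting error, and the gap between genotypes was larger than that between the cKO libraries. Of the 4 members with a mean of at least 20 CPM in enterocytes (Reg4 did not reach it), these 2 were at least 2-fold lower in both cKO libraries, beside 0.289% of the 4849 genes at that level. None of the 4 was at least 2-fold higher (0.0825% of the 4849). Since the genotype contrast was known when the members were chosen, nothing is read from these counts.

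The difference was present over most of the range of single cells. The median enterocyte had 80.9, 56.5 and 948 CPM of Reg3b and 235, 155 and 1394 CPM of Reg3g. More than 1000 CPM of Reg3b was found in 26.04%, 20.2% and 49.3% of enterocytes, and more than 1000 CPM of Reg3g in 24.2%, 19.98% and 57.6%. A part of the cKO enterocytes thus still held much of both transcripts, and at the 90th percentile Reg3b was 5681, 2842 and 12478 CPM. After each cell was thinned to 5000 UMIs, 47.9%, 43.7% and 75.8% of enterocytes had a Reg3b UMI (67.9%, 60.8% and 90.7% before thinning) and 59.8%, 53.0% and 88.1% a Reg3g UMI (82.4%, 77.9% and 95.9% before thinning). In tuft cells, which should lack both genes, the thinned shares were 9.52%, 4% and 34.8% for Reg3b and 2.38%, 12% and 17.4% for Reg3g, at median depths of 10050, 17507 and 10104 UMIs against 31625.5, 35525 and 30142 in enterocytes. Enterocyte shares were therefore above the tuft background in each library, and that background was itself highest in WT.

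**Figure D2:**
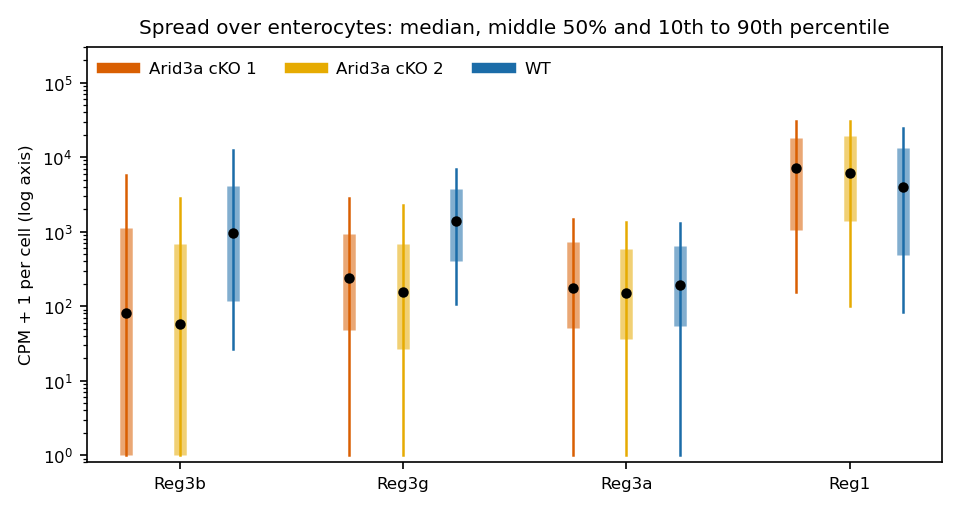
Distribution of each gene's CPM (log scale) over single enterocytes in the 3 libraries. The WT medians of Reg3b (948 CPM) and Reg3g (1394 CPM) stand above those of both cKO libraries, Reg3a is similar in all and Reg1 is lower in WT.

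Reg3a, the neighbour of Reg3b on the same strand, had levels of 513 CPM (506 to 520.3), 440.2 CPM (433 to 448) and 464 CPM (456 to 472) in enterocytes. WT lay between the cKO libraries (log2 ratios of 0.14 and -0.08), so no difference between genotypes was detectable against the gap between the cKO libraries. Its median per enterocyte was 173, 149 and 190.3 CPM. Reg1, the most abundant member, moved the other way: its levels were 12263 CPM (12228 to 12298), 12810 CPM (12769 to 12851) and 9139 CPM (9104 to 9174). It was 1.34- and 1.40-fold higher in the cKO libraries, log2 ratios of 0.42 and 0.49, and the smaller distance to WT, 3124 CPM, exceeded the 547 CPM between the cKO libraries. Its mean log2 ratio ranked 56 from the highest among the 4849 genes, where the median was 0.01. The contrast was known when the members were chosen, so nothing is read from this rank. The median enterocyte had 7065, 6119 and 3929 CPM of Reg1, and over 1000 CPM were found in 75.6%, 76.5% and 68.4% of them. With Reg1 up and Reg3b and Reg3g down, the make-up of the Reg transcripts in enterocytes shifted while their sum changed little. Reg1 made up 78.0%, 83.1% and 54.1% of the UMIs of the 5 members, Reg3b 12.5%, 8.24% and 26.7%, Reg3g 6.23%, 5.73% and 16.5% and Reg3a 3.26%, 2.86% and 2.75%.

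Of the 5 enterocyte clusters, the members favoured different ones. Cluster 1 (940 cells, led by Dnase1 and Cubn) held the highest Reg3a, at 1047, 819 and 839 CPM, and high Reg3b, at 3411, 2250.15 and 6193 CPM. Cluster 5 (548 cells, led by Akp3 and S100g, genes of the proximal intestine) held the highest Reg1, at 26433, 21923 and 18488 CPM, and little Reg3g, at 487, 270 and 1089 CPM. In cluster 2 (745 cells, led by Ccl20, Edn2 and Krt19), which was named only against ISC and TA cells and lay early among enterocytes in the order described below, Reg3g exceeded Reg3b in each library. There the levels of Reg3g were 1021, 1292 and 2899.7 CPM, those of Reg3b 477, 557 and 2405 CPM, and those of Reg3a only 129.7, 121 and 116 CPM. The ratio of Reg3b to Reg3g UMIs ran from 0.467, 0.431 and 0.830 in cluster 2 to 4.81, 3.91 and 2.10 in cluster 1 and 4.65, 5.71 and 2.002 in the small cluster 10, so the proportion of these lectins differed between clusters. In WT the levels of both were highest in cluster 10, at 8612 and 4302 CPM.

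The genotype difference was seen within clusters as well. Reg3b and Reg3g were lower in both cKO libraries, and Reg1 higher, in each of the 5 enterocyte clusters. Among all genes at 20 CPM or more, 40.1%, 40%, 40.1%, 23.4% and 33% were lower by any amount in both cKO libraries in clusters 1, 2, 3, 5 and 10, and 33.4%, 34.9%, 34.8%, 58.5% and 32.7% higher, so a shared direction by itself says little. In cluster 3 (731 cells, led by Ms4a18) Reg3b was at 2163, 1592 and 5669 CPM and Reg3g at 1449, 1347 and 3411 CPM. The cKO libraries were not alike everywhere. In cluster 5, Reg3b was at 1249.5, 316 and 1684 CPM, and in cluster 10 (25, 14 and 19 cells, led by the interferon-response Ifit genes) at 5987, 716 and 8612 CPM. In both of these the cKO libraries differed by more than the nearer of them differed from WT. For Reg1 this held in cluster 5 alone, where the cKO libraries were 4510 CPM apart and the nearer one 3435 CPM above WT.

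**Figure D3:**
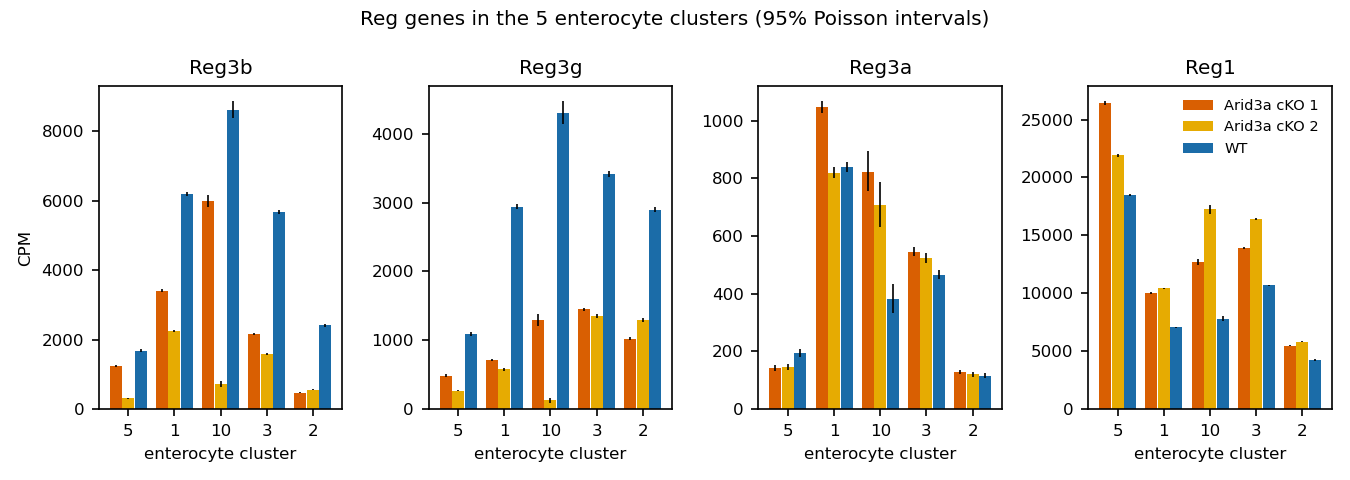
CPM (linear axis) of Reg3b, Reg3g, Reg3a and Reg1 in the 5 enterocyte clusters, 1 bar per library with exact Poisson 95% intervals. WT is the highest library for Reg3b and Reg3g and the lowest for Reg1 in each cluster, with Reg3b in clusters 5 and 10 showing Arid3a cKO 1 near WT.

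The path from stem cell to enterocyte was followed by ordering 4803 ISC, TA and enterocyte cells by diffusion pseudotime, computed without the Reg genes, and cutting the order into 5 bins of equal size. Bin 1 was at least 97.6% ISC, bin 2 mostly TA, and bins 3 to 5 were enterocytes. In WT, Reg3b was at 338, 449.6, 3464, 5401 and 4924 CPM from bin 1 to bin 5, Reg3g at 309.97, 435, 3179, 2789 and 2549 CPM, and Reg1 at 231, 379, 6066, 13395 and 8332 CPM. Reg3g was thus close to its highest level as soon as cells were enterocytes, while Reg3b and Reg1 went on to bin 4. In Arid3a cKO 1 the levels of Reg3b were 27.5, 61.1, 775, 2515 and 3228 CPM and in Arid3a cKO 2 46.6, 21.1, 959, 2001 and 1047 CPM. Those of Reg3g were 117, 201, 1114, 1224 and 623 CPM in Arid3a cKO 1 and 108, 206, 1492, 927 and 324 CPM in Arid3a cKO 2. Both lectins were therefore higher in the enterocyte bins than in bins 1 and 2 in each cKO library, at lower levels than in WT, which was the highest library in each bin. The mean log2 ratio of Reg3b was -1.27 in bin 4 and -1.42 in bin 5, and that of Reg3g -1.38 and -2.49. For Reg3b in bin 5 the cKO libraries had ratios of -0.61 and -2.23 and differed by more than the nearer one differed from WT.

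**Figure D4:**
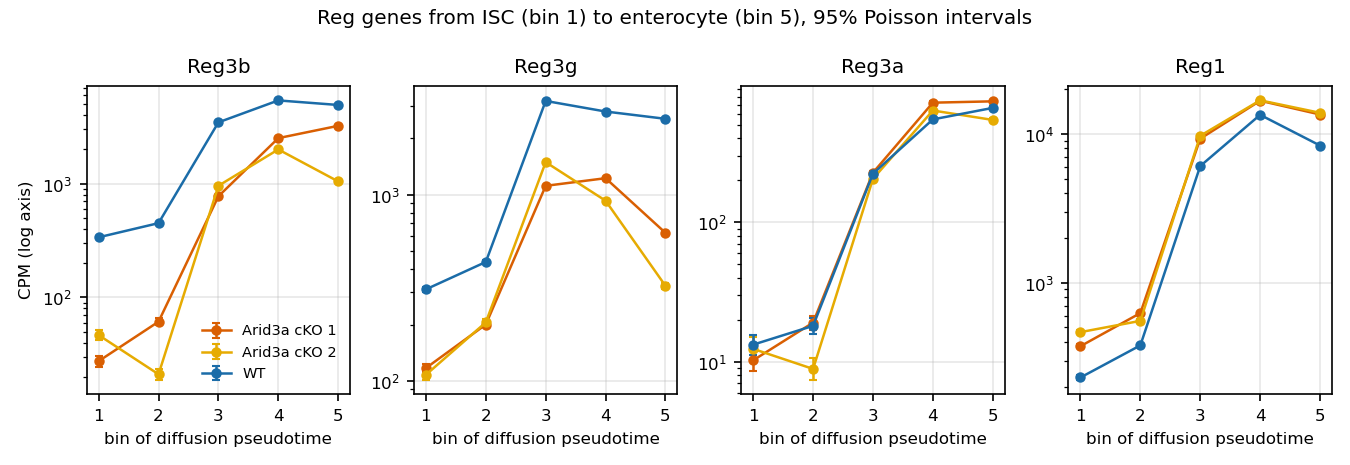
CPM (log axis) of Reg3b, Reg3g, Reg3a and Reg1 in 5 equal bins of the order from ISC (bin 1) to enterocytes (bins 3 to 5), 1 line per library with exact Poisson 95% intervals. All 4 genes rise between bins 2 and 3, and WT stays above both cKO libraries for Reg3b and Reg3g in every bin.

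Outside the enterocytes, levels were low and rested on few cells. In ISC, Reg3b was at 31.9, 37.6 and 535 CPM and Reg3g at 127, 139 and 377 CPM. In TA cells the values were 37.9, 25.4 and 159 CPM for Reg3b and 129.998, 152 and 275 CPM for Reg3g, and in goblet cells 30.6, 22.5 and 473 CPM and 51.0, 73.9 and 517 CPM. WT was the highest library in each, by more than the difference between the cKO libraries. However, in WT 4 ISC (1% of them) held 75.8% of the Reg3b UMIs of that class, and 2 goblet cells held 55.9%. Without the 1% of cells with the highest CPM of Reg3b in each library, its level was 16.8, 9.10 and 161 CPM in ISC and 15.7, 13.8 and 214 CPM in goblet cells. The thinned shares of cells with a Reg3b UMI were 6.61%, 6.64% and 22.1% in ISC (median depth 28012, 33126 and 27206 UMIs) and 7.48%, 6.19% and 34.1% in goblet cells. They were below the tuft shares in Arid3a cKO 1 and WT and within the tuft interval in Arid3a cKO 2 (0.101% to 20.4%), so Reg3b in these classes was read as background. For Reg3g the shares in ISC, 25.7%, 21.4% and 33.7%, and in TA cells, 28.4%, 31.6% and 41.2%, were above those of tuft cells in each library, but the ISC share of Arid3a cKO 2 lay inside its tuft interval (2.55% to 31.2%) and was not separated from background. In goblet cells the Reg3g shares were 15.9%, 11.5% and 23.5%. That of Arid3a cKO 2 was below its tuft share (12%) and that of WT inside its tuft interval (7.82% to 31.4%). Neither was separated from background. Beside the enterocyte result, the calls were 2 members at least 2-fold lower in ISC (0.166% of 5410 genes), 1 in TA cells (Reg3b, 0.122% of 5734) and 2 in goblet cells (0.182% of 4933). No member was at least 2-fold higher in both cKO libraries in ISC, TA, goblet, Paneth, enteroendocrine or tuft cells, beside 0.0185%, 0.0174%, 0.0811%, 0.324%, 0.277% and 0.184% of the genes at 20 CPM or more.

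Paneth cells, the antimicrobial cells of the crypt base, were few (34, 17 and 29) and deep, with medians of 119501 to 177412 UMIs. Reg3b was at 47.5, 12.6 and 295 CPM and Reg3g at 113, 146 and 475 CPM, both at least 2-fold lower in each cKO library (1.46% of 1235 genes). Thinned to 5000 UMIs, 33.3%, 12.5% and 71.4% of Paneth cells had a Reg3g UMI, against 2.38%, 12% and 17.4% of tuft cells. For Reg3b the shares were 9.09%, 6.25% and 53.6%, against 9.52%, 4% and 34.8%. The Reg3g share of Arid3a cKO 2 and the Reg3b shares of both cKO libraries were thus not separated from background. Without the 1 Paneth cell highest in Reg3b in each library, its level was 14.9, 2.14 and 195 CPM. The level of Reg1 in Paneth cells was 78.9, 131 and 251 CPM, and 1 cell held 48.4% to 81.1% of these UMIs in each library. Its thinned shares of 21.2%, 25% and 28.6% were below those of tuft cells (31.0%, 36% and 39.1%) and were read as background. The sum of the 19 enterocyte markers in the Paneth class moved with all 3 genes, at 535, 490.4 and 1639 CPM. Per 1000 UMIs of these markers, Paneth cells held 88.9, 25.7 and 180.2 UMIs of Reg3b, 210.5, 298 and 289.8 of Reg3g and 148, 268 and 153 of Reg1. On that scale WT stayed above both cKO libraries for Reg3b, while for Reg3g and Reg1 it lay between them. For Reg3b in enteroendocrine cells and Reg3g in tuft cells, the cKO libraries differed by more than the nearer one differed from WT. Tuft cells held 18.9, 39.3 and 107 CPM of Reg3b, a member called lower there (0.234% of 5983 genes), and 21.8, 445 and 117 CPM of Reg3g, for which 1 cell gave 73.5% of the UMIs in Arid3a cKO 2. Tuft cells served as the class that should lack both genes, so these values and the call were read as background. Enteroendocrine cells held 10.4, 107 and 126 CPM of Reg3b and 13.0, 29.7 and 96.9 CPM of Reg3g, the latter called lower (0.154% of 6503 genes). Their thinned Reg3g shares, 5.13%, 7.5% and 15.9%, lay inside the tuft intervals and were not separated from background.

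**Figure D5:**
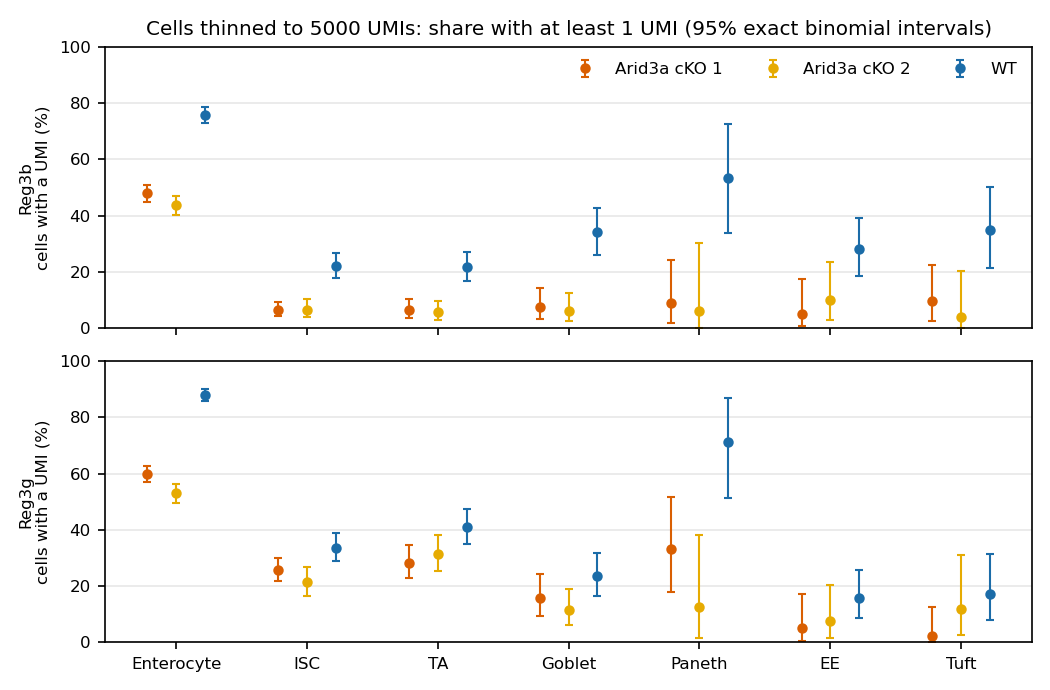
Percent of cells with at least 1 UMI of Reg3b or Reg3g after thinning every cell to 5000 UMIs, by cell class and library, with exact binomial 95% intervals. Enterocytes stand above tuft cells for both genes, while Reg3b in ISC, TA and goblet cells stays near or below the tuft level of the same library.

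Reg1 followed the enterocyte direction in ISC (546, 565 and 349 CPM), TA cells (336, 347 and 231 CPM) and goblet cells (552, 685 and 356 CPM). Its thinned share in ISC was 36.7%, 30.3% and 36.5%, close to 31.0%, 36% and 39.1% in tuft cells, and was read as background. Without the 1% of goblet cells with the highest Reg1, the goblet levels were 169, 286 and 278 CPM, and WT lay between the cKO libraries. With the top 5% of doublet scores left out, the mean log2 ratio of Reg1 was -0.44 in ISC and -1.07 in goblet cells, so its direction there was not stable. Reg3a had thinned shares of 2.58% to 3.87% in ISC against 56.1% to 60.6% in enterocytes, so it too was mainly in enterocytes.

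Reg4 was high in a minority of enteroendocrine cells and present in nearly all Paneth cells. In enteroendocrine cells (44, 43 and 87) its level was 11256 CPM (11021 to 11495), 12955 CPM (12708 to 13205) and 9964 CPM (9807 to 10124). The cKO libraries were 1.13- and 1.30-fold higher, log2 ratios of 0.18 and 0.38, and differed from each other by 1699 CPM, more than the 1292 CPM between WT and the nearer one, so no difference between genotypes was detectable. With the top 5% of doublet scores left out, the mean log2 ratio was -0.13. The median enteroendocrine cell had 0 CPM of Reg4, while 25%, 25.6% and 22.99% of them had more than 10000 CPM. A UMI was found in 41.0%, 37.5% and 30.5% of thinned enteroendocrine cells, against 2.38%, 4% and 6.52% of tuft cells. In Paneth cells the level was lower but even, with 1071, 759 and 713 CPM in the class, medians of 936, 772 and 655 CPM per cell and a UMI in 93.9%, 100% and 92.9% of thinned cells. Goblet cells held 94.4, 151 and 79.5 CPM with a UMI in 20.6%, 24.8% and 18.9% of thinned cells, above tuft cells in each library. Enterocytes held 2.74, 2.87 and 7.51 CPM, and their thinned shares of 2.37%, 1.83% and 3.15% were at or below those of tuft cells, so Reg4 was not detectable in them above background.

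Genes most like each member were ranked by Pearson r of log2(CPM + 5) over 21 combinations of 7 classes and 3 libraries, among 5549 genes. The points share libraries and classes, so r is a description. Reg3a was closest to Slc51b, a basolateral bile acid transporter subunit (r = 0.98), and Reg1 to Sult6b2 (0.98) and Alpi (0.95), the intestinal alkaline phosphatase. Reg3b was less tightly matched, with Enpep (0.85), Gda (0.84), Apol10a (0.84), Soat2 (0.83) and Ggt1 (0.83), and Reg3g was closest to Reg3b itself (0.82), followed by Slc51a (0.75). Reg4 was closest to Trp53inp1 (0.93) and Meg3 (0.88). The nearest genes of the 4 members on chromosome 6 were thus mostly genes of absorptive enterocytes. Over 1202, 851 and 969 single enterocytes, the Spearman correlation of Reg3b with Reg3g was 0.41, 0.30 and 0.65 and that of Reg3b with Reg3a 0.52, 0.48 and 0.37. Reg1 was nearly unrelated to the other 3, from -0.09 to 0.06. Cells of a library share its free RNA and differ in depth, and no test was made of these values.

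The pathway that induces Reg3b and Reg3g showed smaller differences. Of 21 cytokine receptors and signalling genes, 7 reached 20 CPM in enterocytes and 0 were 2-fold lower or higher in both cKO libraries, with a median log2 ratio of -0.12. Stat3, the main factor downstream of IL-22, was at 36.4, 39.5 and 48.2 CPM. The receptor subunits differed less: Il10rb was at 62.0, 63.8 and 65.6 CPM and Il22ra1 at 2.92, 3.21 and 2.94 CPM, below the limit of 20. Of 25 genes induced by microbes or IL-22, 3 reached 20 CPM and 0 were called, which were Pigr, Ccl20 and Sprr2a3. Pigr, the transporter of IgA, had a mean log2 ratio of -0.07. The chemokine gene Ccl20 was at 21.7, 33.4 and 11.1 CPM (log2 ratios of 0.72 and 1.25) and Sprr2a3 at 25.4, 30.8 and 19.6 CPM (0.31 and 0.54), so for both WT was the lowest library. Most of that list could not be assessed at these levels. Of 20 other secreted antimicrobial genes, 10 reached 20 CPM and 1 was lower (0.289% of 4849 genes), Zg16, a lectin of goblet cells, at 95.8, 135 and 298 CPM. Lypd8, which keeps flagellated bacteria from the epithelium, was at 3201, 3105 and 3336 CPM and Dmbt1 at 475, 478 and 522 CPM. Of 13 genes of interferon-gamma response and MHC class II, 6 reached 20 CPM and 5 were lower (0.289% of 4849 genes), which were Cd74, H2-Aa, H2-Ab1, H2-Eb1 and Igtp. These lists were chosen with earlier results of these data known, so nothing is read from their counts. Cd74, the invariant chain, was at 53.9, 46.2 and 312 CPM.

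Position along the villus and the gut was looked at with 4 further lists, since the members differ by zone. Of 8 genes of the villus bottom 7 were tested, of 10 of the villus tip 4, of 7 of the proximal intestine 6 and of 8 of the distal intestine 5, and 1 in all was called, Akp3 of the proximal list, higher (0.0825% of 4849 genes) with a mean log2 ratio of 1.40. The other tested proximal genes fell short of a call. S100g (log2 ratios of 0.89 and 1.35), Pdx1 (0.67 and 0.65) and Slc40a1 (0.40 and 0.60) were higher in both cKO libraries. Gata4 (-0.09 and -0.24) and Lct (-0.31 and -0.09) were lower in both. Reg1 was highest in the enterocyte cluster led by Akp3 and S100g. Any link between the Reg1 difference and these genes was not tested. Markers of other cells moved with genotype inside the enterocyte class. Summed over 10 goblet markers, 0 of them at 0, the level was 373, 468 and 913 CPM, with 3 of the 6 tested lower (0.289% of 4849 genes), and over 8 T cell markers, 0 of them at 0 in any library, 2.71, 22.8 and 39.6 CPM. Both sums were highest in WT, as Reg3b and Reg3g were, and their part in the result was not tested. The sum of 9 pancreatic acinar markers was 1.83, 1.83 and 2.90 CPM, so RNA of the pancreas, where Reg genes can be abundant, was close to absent. The sum of 19 enterocyte markers was 69812, 76927 and 68760 CPM, and per 1000 UMIs of these markers enterocytes held 28.2, 16.5 and 65.6 UMIs of Reg3b and 14.0, 11.5 and 40.5 of Reg3g, so the difference was as large on that scale.

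The remaining genes of the family on chromosome 6 were nearly silent. Reg2, the closest relative of Reg1 with 79.7% identity of their transcripts, gave 34, 13 and 20 UMIs in all kept cells, and Reg3d, which lies between Reg3b and Reg3a on the opposite strand, 73, 51 and 43. In tuft cells Reg3d had 0 UMIs in each library, which allows up to 4.35, 5.36 and 4.07 CPM. No difference between genotypes could be read from such counts.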

How the data were processed

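The members and gene lists were chosen with earlier results of these data known. Reads were aligned and counted by the authors with CellRanger (5.0.0 in the file headers), and the values deposited are raw counts of UMIs for each gene in each barcode. The mouse genome build of that step is not given in the sources used here (the submitters' processing notes name human builds). Gene positions were matched by identifier to GENCODE M21 on GRCm38. The groups come from the genotype labels. Barcodes with at least 1000 genes and at most 15% mitochondrial UMIs, the limits of the study, were kept (5594 of 25554), and all 7 member and relative genes of the family were left out of clustering.

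Libraries were joined with the CCA integration of Seurat 5.3.0 under R 4.3.3 on 3000 features, then principal components of 2000 of them, 30 components and resolution 0.3, which gave 12 clusters. A cluster took the class with most fixed markers among its top 50 genes by fold, with at least 3 needed. Clusters short of 3 took the class with the largest share of its markers raised at least 1.5-fold and found in at least 25% of cells. Enterocyte clusters 5 and 10, with 1 and 0 enterocyte markers in the top 50, were named in this second way, by 17 and 19 of 19 markers. These scoring rules were set after clusters were seen, and cluster 2 was named only when compared with the ISC and TA clusters alone. Doublets were kept, because Scrublet called 110 cells (1.97%), and leaving out the top 5% of scores was an alternative. Diffusion pseudotime used scanpy 1.11.5 with 15 neighbours and 10 components.

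UMIs were summed per class and library. No test between genotypes was made, since there is 1 WT library, and calls are a mean of at least 20 CPM with a 2-fold difference of the same sign in both cKO libraries. The intervals are exact Poisson (levels) and exact binomial (shares). Shares were compared after random thinning to 5000 UMIs, which left out shallower cells (17 to 31 enterocytes and 2 to 3 tuft cells per library). Genes named are the members, their relatives, the 5 genes most like each member in level and genes of the fixed lists, of which 1 is not reported here. The scripts were tested on simulated data. Alternatives were other cell limits, resolution 0.8, no integration, edgeR 4.0.16 TMM scaling, a pseudocount of 1 CPM, other filters, means over cells and leaving out each cKO library. After the data were seen, leaving out cluster 2 was added.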

Additional observations from a re-analysis of the deposited data

Results flagged for a closer look

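The CPM of Reg1 lay on opposite sides of WT in different cell classes. Its mean log2 ratio of cKO to WT was 0.46 in enterocytes, 0.66 in ISC, 0.55 in TA cells and 0.78 in goblet cells, with both cKO libraries above WT in each, but -1.26 in Paneth cells, with both below WT. The difference between classes was not tested. In Paneth cells 1 cell held 48.4% of the Reg1 UMIs in WT and 81.1% in Arid3a cKO 2, and the thinned shares of 21.2%, 25% and 28.6% lay below those of tuft cells. Enterocyte markers summed to 535, 490.4 and 1639 CPM in the Paneth class, and per 1000 of their UMIs Reg1 was at 148, 268 and 153, with WT between the cKO libraries. The positive values in ISC and goblet cells were not stable either: with the top 5% of doublet scores left out, the ratio was -0.44 in ISC and -1.07 in goblet cells, and without the 1% of goblet cells highest in Reg1 it was -0.33. In TA cells the ratio stayed positive over the alternatives, from 0.29 to 0.84. The thinned Reg1 shares of TA cells, 38.6%, 34.9% and 30.8%, lay inside the tuft intervals and were not separated from background.

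Barcodes removed by the limits on genes and mitochondrial UMIs also held Reg transcripts. With mitochondrial UMIs left out of the total, Reg1 was at 3620 CPM in Arid3a cKO 1 and 3492 CPM in Arid3a cKO 2, both above 2908 CPM in WT. Reg3b in the same barcodes was at 541, 354 and 1488 CPM and Reg3g at 271, 175 and 902 CPM (Arid3a cKO 1, Arid3a cKO 2 and WT), the directions seen in kept enterocytes.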

How the results depend on the processing

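Over 239 recomputed log2 ratios of members in cell classes, 184 moved by less than the SD of the 2 cKO libraries or the counting error, whichever was larger, and 55 by more. In enterocytes the mean log2 ratio stayed within -1.68 to -1.38 for Reg3b, -1.79 to -1.49 for Reg3g, -0.02 to 0.32 for Reg3a and 0.40 to 0.55 for Reg1. With 1 cKO library left out, the ranges were -1.82 to -1.19, -1.65 to -1.50, -0.08 to 0.14 and 0.42 to 0.49, and 0.18 to 0.38 for Reg4 in enteroendocrine cells. With the enterocyte clusters weighted equally, the ratios were -1.79 for Reg3g, 0.32 for Reg3a and 0.54 for Reg1, and without cluster 2, -1.70 for Reg3g and 0.51 for Reg1. With at least 500 genes and at most 25% mitochondrial UMIs, Reg1 was at 0.55 in enterocytes and Reg4 at -0.060 in enteroendocrine cells. Leaving mitochondrial, Gm42418, Gm26917 and Reg UMIs out of the total gave 0.40 for Reg1, and leaving out the highest doublet scores -0.13 for Reg4. The causes were not tested.

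The count of genes at least 2-fold lower in enterocytes, 14, was 22 with no filter on low values, and the count higher, 4, was 5 to 7 with 1 cKO library left out. In ISC and TA cells together, 8 genes were lower, and 14 with the wider cell limits, and 1 was higher, with 2 at a mean of at least 5 CPM, 3 with no filter and 2 to 5 with 1 cKO library left out. Ordering cells by a score of villus tip against bottom genes mixed ISC with enterocytes (Spearman rho of 0.43 with pseudotime). No paired analysis was possible because 1 number alone is common to both genotypes. With 1 WT library, differences between libraries of 1 genotype could be given for the cKO libraries alone, and the few Paneth, tuft and enteroendocrine cells limit their values.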
